A study of Homo sapiens with 8 samples.

Results

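The genes described here are the expressed numbered zinc finger genes, those whose symbol is ZNF, a number and at most 1 letter, with a mean of at least 15 CPM (a gene's counts scaled to a common library size) over all 8 libraries. The rule found 262 of 63677 genes, out of 601 identifiers with such a name. They were chosen by their mean level, a measured value, and not by the contrast of treatments, so their levels are a description and their changes were tested. The cells, MOLT-4 and DND-41, are established human cell lines from T-cell leukaemias (acute lymphoblastic), and were exposed for 24 h to ACBI-1 at 100 nM or to its solvent DMSO. ACBI-1 is a degrader that links the bromodomain proteins SMARCA2, SMARCA4 and PBRM1, parts of the BAF and PBAF chromatin remodelling complexes, to the ubiquitin ligase VHL. Each of the 4 groups, DMSO or ACBI-1 in MOLT-4 and in DND-41, held 2 libraries, and the labels do not say whether these came from separate cultures, so p-values measure only the spread between libraries, which may be technical.

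Most numbered zinc finger genes encode proteins with a row of C2H2 fingers, each folded around a zinc ion, that together read a stretch of DNA. Many also carry a KRAB box, which binds the co-repressor TRIM28 and through it brings the histone methyltransferase SETDB1 and HP1 proteins to the bound site. KRAB zinc finger proteins are best known for keeping transposable elements silent, and many of their genes lie side by side on human chromosome 19. Other numbered zinc finger proteins have no KRAB box and act as activators, as parts of co-repressor complexes, or on RNA and ribosomes.

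The libraries held 21308737 to 22067644 counts, and the 262 genes took 0.967% to 1.35% of them. All 8 T-cell markers were detected in both lines, with a summed level of 2458 to 2545 CPM in MOLT-4 and 3357 to 3654 CPM in DND-41. Within these sums single markers moved in both directions. In MOLT-4, CD7 averaged 139 CPM with DMSO and 22.3 with ACBI-1, and CD3G 281 and 437. In DND-41, CD7 averaged 1287 CPM in the libraries with replicate number 1 and 245 in those with number 2, and CD3G 445 and 1139. The labels and the values of DND-41 did not match. Its libraries labelled ACBI-1 and DMSO with the same replicate number differed by 5.53 and 6.0 times the counting noise (chi-square per degree of freedom), whereas every pair with different numbers differed by 70.2 to 84.1. The authors' deposited table for DND-41 equalled, to within 0.001 on the log2 scale, the libraries numbered 2 over those numbered 1 for all 262 genes. DND-41 is therefore given as labelled and, apart from that, as number 2 over number 1, and no label says which of these is the treatment.

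Of the 262 genes, 219 averaged at least 15 CPM in both lines, 34 only in DND-41 and 9 only in MOLT-4. The mean over 8 libraries lay between 15 and 30 CPM for 141 genes, between 30 and 100 for 103, and at 100 or more for 18, with a median of 29 CPM. ZNF530 (15.3 CPM), ZNF513 (15.2) and ZNF75D (15.1) stood just inside the threshold, and ZNF182 (14.9), ZNF382 (14.7) and ZNF688 (14.5) just outside it. GENCODE release 29 held 260 of the genes, 257 of them with a coding transcript. A KRAB A box, scored as at least 10 of 15 characteristic residues, was found in 156, a SCAN box in 15 and a BTB box in 1 (ZNF131). The proteins held a median of 10 C2H2 fingers and at most 33, with a median of 12 in those with a KRAB box and 7 in the others, and 8 proteins matched the finger pattern nowhere. Chromosome 19 carried 114 of the genes, among them 93 of the KRAB genes, and 151 had a numbered ZNF gene as a direct neighbour.

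The promoters of 5 genes are printed because these genes mark the extremes of the results. ZNF341 had the largest change that both lines shared, and ZNF641, ZNF101, ZNF100 and ZNF431 moved in opposite directions in MOLT-4 and in the DND-41 number contrast. Each run is the 250 bases before the gene's start in the RefSeq table (build GRCh38.p14), and capitals mark letters of the motifs CCGGAAG (ETS factors), CCAAT (NF-Y) and GGGCGG (SP factors) on either strand. ZNF341 lies at chr20:33731746-33731995 (+), ZNF641 at chr12:48350920-48351169 (-), ZNF101 at chr19:19668589-19668838 (+), ZNF100 at chr19:21767580-21767829 (-) and ZNF431 at chr19:21141790-21142039 (+).
ZNF341: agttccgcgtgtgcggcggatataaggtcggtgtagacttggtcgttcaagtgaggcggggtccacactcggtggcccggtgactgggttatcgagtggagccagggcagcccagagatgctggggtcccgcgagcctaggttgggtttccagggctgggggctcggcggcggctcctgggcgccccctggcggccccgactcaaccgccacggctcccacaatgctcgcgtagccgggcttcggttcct
ZNF641: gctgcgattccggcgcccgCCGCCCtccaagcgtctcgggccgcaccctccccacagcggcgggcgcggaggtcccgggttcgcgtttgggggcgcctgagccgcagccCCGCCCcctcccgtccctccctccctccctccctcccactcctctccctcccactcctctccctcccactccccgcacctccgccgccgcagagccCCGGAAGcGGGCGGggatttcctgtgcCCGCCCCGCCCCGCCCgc
ZNF101: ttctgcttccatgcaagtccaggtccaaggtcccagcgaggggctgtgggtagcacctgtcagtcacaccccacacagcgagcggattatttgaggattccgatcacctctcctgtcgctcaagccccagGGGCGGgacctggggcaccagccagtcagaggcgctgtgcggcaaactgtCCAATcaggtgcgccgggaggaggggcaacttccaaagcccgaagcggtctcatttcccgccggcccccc
ZNF100: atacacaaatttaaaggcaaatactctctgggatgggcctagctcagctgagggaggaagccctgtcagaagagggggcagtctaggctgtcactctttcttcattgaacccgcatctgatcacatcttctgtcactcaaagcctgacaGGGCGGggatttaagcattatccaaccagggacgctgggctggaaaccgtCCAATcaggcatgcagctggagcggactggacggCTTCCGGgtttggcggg
ZNF431: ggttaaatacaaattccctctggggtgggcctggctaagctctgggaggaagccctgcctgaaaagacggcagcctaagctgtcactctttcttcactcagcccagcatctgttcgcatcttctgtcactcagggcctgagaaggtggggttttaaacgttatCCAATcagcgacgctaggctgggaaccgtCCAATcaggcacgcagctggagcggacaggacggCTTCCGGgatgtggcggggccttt

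The window of ZNF341 held none of the 9 motifs searched. ZNF100 and ZNF431, both on chromosome 19, each held ETS and NF-Y letters, and ZNF100 held SP letters as well. ZNF101 held NF-Y and SP letters, and ZNF641 held ETS and SP letters. Of the 262 genes, 232 matched a promoter in the table, 2 of them by an older symbol. CCGGAAG stood in 33.6% of these promoters, against 8.82% of all 27305 promoters and 19.1% of the 6983 promoters of genes with at least 15 CPM. CCAAT stood in 43.5%, against 33.0% and 36.3%, and in 50.7% of the promoters of KRAB genes. GGGCGG stood in 62.1%, against 42.3% and 69.2%. Of the genes that fell in MOLT-4, 43.9% held CCGGAAG, and of those that rose 22.8%. By number in DND-41 the split went the other way. There 25.8% of the genes lower in the libraries numbered 2 held it, and 37.3% of those higher. Neither split was tested. Motifs CACGTG (MYC and MAX), TGTGGT (RUNX), AAGATGG (YY1), GCGCATG (NRF1), TGACGTC (CREB and ATF) and ACTACAA (ZNF143) were searched on both strands as well. A letter match is a description of the window and not a bound site.

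The first comparison asked how the genes changed with ACBI-1 in MOLT-4. The family had no single direction. Among 261 genes tested, the calls were 91 upward and 65 downward, with 105 past neither way (edgeR quasi-likelihood, Benjamini-Hochberg adjusted p under 0.05 over all genes tested). The test called 58.4% of all genes tested, 28.2% higher and 30.2% lower, against 34.9% and 24.9% of the zinc finger genes. Among all genes of at least 15 CPM it called 68.7%, 28.2% higher and 40.6% lower. The median log2 fold change of the family was 0.04, beside 0.009 for all genes tested and -0.05 for those of at least 15 CPM. The quartiles of the family were -0.15 and 0.25 on the log2 scale. The summed share of the family went from 0.967% and 0.975% of counts in the DMSO libraries to 1.08% and 1.11% in the ACBI-1 libraries, and these ranges did not overlap. These are shares of total counts, without TMM scaling. With total counts, 39.7% of all genes tested were called higher and 20.7% lower, so the rise is not particular to the family. In bulk RNA, a change in the mix of cells and a change in RNA per cell cannot be told apart.

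Scaling set the balance of directions. With total counts in place of TMM scaling, 127 genes were higher and 37 lower (edgeR) and the median was 0.16, while the median of all genes tested moved to 0.13 and the test called 60.4% of them, 39.7% higher and 20.7% lower. DESeq2 called 51 higher and 40 lower, and edgeR without a low-count filter 49 and 45. In the authors' deposited DESeq2 table for MOLT-4, 19.5% of the family were called higher and 14.9% lower. The shares there were 14.7% and 20.35% for all genes tested, and 19.4% and 32.9% for genes of at least 15 CPM. In 1 fit of all 8 libraries by label, with a common spread, 1 gene was called higher and 1 lower. The shares of all genes called in that fit and without a low-count filter are not given here. B-cell markers summed to 5.08 and 5.18 CPM with DMSO and to 0.753 and 0.803 with ACBI-1, with MS4A1 at 0 in every library, and fibroblast markers to 0.475 and 1.28 CPM with DMSO and 0.580 and 18.7 with ACBI-1, mostly COL1A1. The part of these values in the results was not tested.

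**Figure D1:**
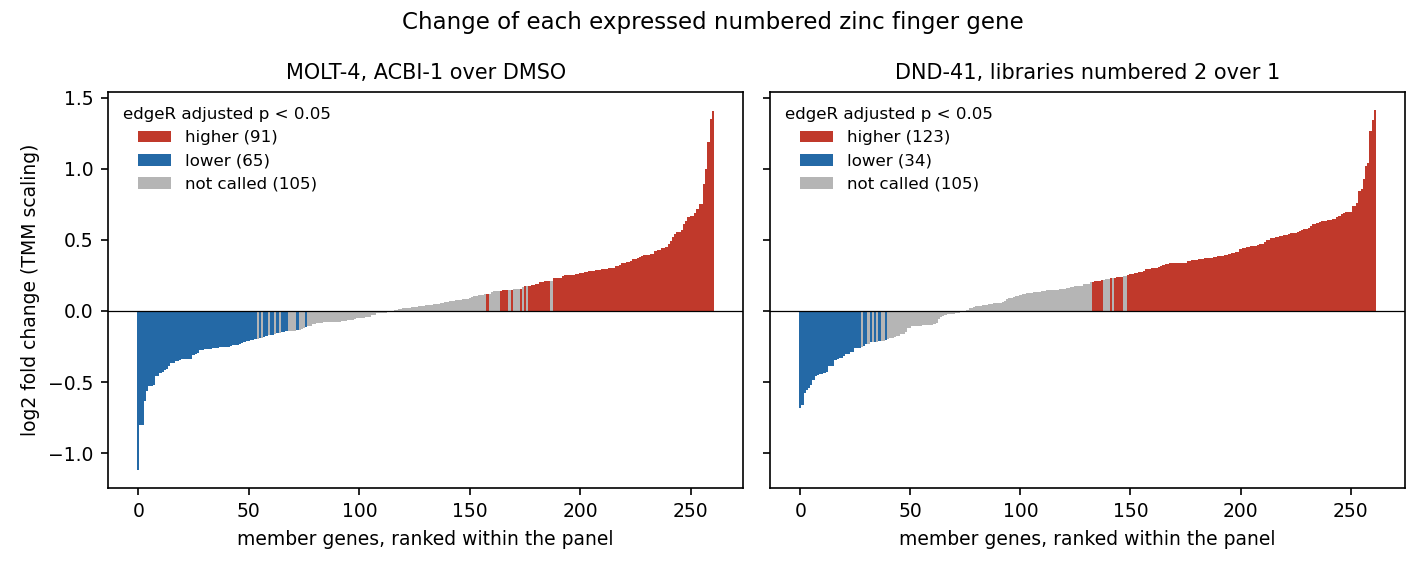
Log2 fold change of each zinc finger gene (vertical axis, TMM scaling), ranked from lowest to highest, in MOLT-4 with ACBI-1 over DMSO (left, 261 genes) and in DND-41 libraries numbered 2 over 1 (right, 262 genes). Red bars passed as higher, blue bars as lower (edgeR adjusted p under 0.05) and grey bars did not pass. The left panel holds 91 red and 65 blue bars, the right panel 123 and 34.

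Only 4 genes changed at least 2-fold in MOLT-4 with TMM scaling. The genes with the largest changes were named only if called and if the libraries of both groups did not overlap. For them the lack of overlap is a condition of naming and adds no support. ZNF341, which binds the promoter of STAT3 and is needed for its expression, measured 11.8 and 9.11 CPM with DMSO and 27.9 and 27.5 CPM with ACBI-1. Both treated libraries lay above both controls, a difference of 1.41 on the log2 scale with an SE of 0.0894 (edgeR adjusted p = 9.53e-18). ZNF652, a partner of the co-repressor CBFA2T3, measured 11.3 and 11.1 CPM with DMSO and 28.1 and 28.9 with ACBI-1 (log2 fold change 1.35, SE 0.0815, edgeR adjusted p = 1.86e-18). ZNF219, a partner of SOX9 in cartilage, rose from 43.9 and 45.5 CPM to 106 and 98.0 CPM, or by 1.19 ± 0.0512 (SE) on the log2 scale (edgeR adjusted p = 1.25e-23). None of these 3 proteins has a KRAB box. ZNF276 was the gene that fell at least 2-fold, from 27.5 and 28.7 CPM to 13.1 and 12.8 CPM, with -1.12 ± 0.0790 (SE) on the log2 scale (edgeR adjusted p = 3.25e-16). Its opposite-strand neighbour FANCA held 421% of its counts over the 8 libraries and itself rose (log2 fold change 0.33), and the strand setting of the counting is not given in the sources used here.

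The other genes with the largest rises, picked by the same rule, were ZNF862 (log2 fold change 0.997), ZNF514 (0.89), ZNF678 (0.75), ZNF83 (0.75), ZNF333 (0.72), ZNF318 (0.69) and ZNF672 (0.67). ZNF862 has a KRAB box and no C2H2 finger by the pattern used. ZNF318, which in B cells controls the choice between IgM and IgD transcripts, rose from 53.8 and 49.7 CPM to 84.9 and 81.7 CPM. ZNF514, a KRAB gene, rose from 7.60 and 7.12 CPM to 12.2 and 15.1 CPM. The opposite-strand gene ADGRE2 had 42.3% as many counts as ZNF333, and the pseudogene ZNF137P 13.9% as many as ZNF83.

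Among the falls, ZNF496, a SCAN protein that binds the histone methyltransferase NSD1, went from 121 and 124 CPM to 70.7 and 69.5 CPM, with -0.80 ± 0.0445 (SE) on the log2 scale (edgeR adjusted p = 9.16e-20). ZNF22, a short protein of 5 fingers, went from 91.7 and 92.1 CPM to 57.8 and 60.6 CPM (log2 fold change -0.63). The treated libraries of both genes lay below both controls, as the naming rule required. ZNF7 (-0.80), ZNF641 (-0.56), ZNF259 (-0.53), ZNF286A (-0.53), ZNF408 (-0.52), ZNF324 (-0.46) and ZNF275 (-0.46) completed the 10 largest falls. ZNF259 encodes ZPR1, which binds the translation elongation factor eEF1A. COMMD5, opposite to ZNF7, had 60.9% as many counts. Read-length windows shared with other genes made up 57.8% of ZNF286A and 29.5% of ZNF324, so their counts are uncertain.

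Split by protein class, KRAB genes in MOLT-4 were called upward in 44 and downward in 37 of 156 (median log2 fold change 0.02), while 46 of 100 coding genes without a KRAB box rose and 27 fell (0.08). On chromosome 19, 23 of 93 KRAB genes rose and 24 fell (0.007). With total counts in place of TMM, the counts were 68 and 18 for all KRAB genes, 39 and 9 for those on chromosome 19 (median 0.13), and 58 and 19 for genes without a KRAB box. Under that scaling 39.7% of all genes tested were called higher and 20.7% lower. With TMM, KRAB genes on other chromosomes split 21 to 13 of 63 (0.04), and the 15 SCAN genes 4 to 5 (-0.01). Genes with more than 15 fingers were called least, 11 higher and 4 lower of 47. These counts were not tested against each other. Among the 196 genes held by GENCODE with at most 10% of read-length windows shared and at most 10% of counts on the opposite strand, 66 rose and 52 fell.

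DND-41 was compared next, first as labelled. None of the 262 genes passed there (0 by edgeR, with 0 at an unadjusted p under 0.05, and 0 by DESeq2), and 0.0% of all 14602 genes tested were called. The test of the difference in response between the lines, as labelled, called none either (0 of 262 by edgeR and 0 by DESeq2, with 17 at an unadjusted p under 0.05; 0.393% of all genes tested). Each labelled group joined 1 library of either number, so its spread held the whole difference between the numbers. With the replicate number in the fit as a block, both tests did call genes of the family. The counts of 0 therefore hold only for the edgeR and DESeq2 fits without it.

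By number, the family leaned to one side. Of 262 genes, 123 were higher and 34 lower in the DND-41 libraries numbered 2 than in those numbered 1, and 105 did not pass (edgeR quasi-likelihood, adjusted p under 0.05). The test called 51.1% of all genes tested, 25.4% higher and 25.7% lower, against 46.9% and 13% of the zinc finger genes. Among all genes of at least 15 CPM it called 58.9%, 24.8% higher and 34.1% lower. The family's median log2 fold change was 0.19, beside 0.02 for all genes tested and -0.05 for those of at least 15 CPM. Its share of total counts, without TMM scaling, was 1.11% and 1.06% in the libraries numbered 1 and 1.35% and 1.28% in those numbered 2, without overlap. With total counts in place of TMM, 154 genes were higher and 19 lower, and of the genes of at least 15 CPM 59.4% were called, 33.7% higher and 25.7% lower, with a median of 0.29 beside 0.12 for all genes.

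The same contrast stands in the authors' deposited table, where 90 of the 262 genes were higher and 25 lower in DND-41 (DESeq2 adjusted p under 0.05), with 36.8% of all genes tested called, 15.2% higher and 21.6% lower. Without a low-count filter edgeR called 81 higher and 21 lower, and the share of all genes called in that fit is not given here. B-cell markers summed to 715 and 771 CPM in the libraries numbered 1 and to 189 and 217 CPM in those numbered 2, nearly all of it CD79A (means of 739 and 202 CPM), with MS4A1 at 0 in all 4 libraries. Their part in the result was not tested.

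KRAB genes carried most of the lean. Of 156, 83 were higher and 10 lower in the libraries numbered 2 (median log2 fold change 0.25), and on chromosome 19 the split was 53 to 2 of 93 (0.29). Coding genes without a KRAB box split 38 to 22 of 101 (0.12). Genes with a numbered ZNF gene as neighbour split 78 to 12 of 151 (0.24), and coding genes without such a neighbour 43 to 20 of 106 (0.12). By number of fingers, the medians were 0.09 for 1 to 5 fingers, 0.20 for 6 to 10, 0.30 for 11 to 15 and 0.21 for more than 15. These classes overlap, and their counts were not tested against each other.

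**Figure D2:**
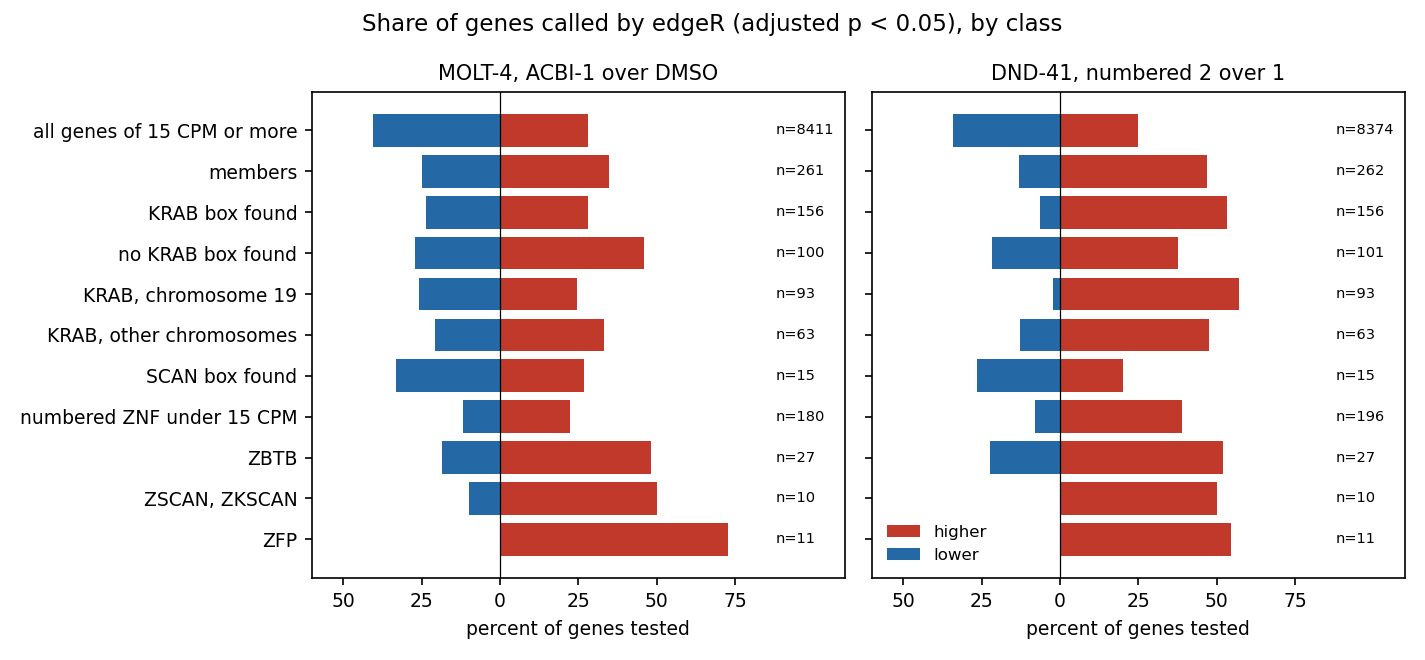
Percent of genes called higher (red, to the right) and lower (blue, to the left) by edgeR, for classes of the zinc finger genes, for related families and for all genes of at least 15 CPM, in MOLT-4 with ACBI-1 over DMSO (left) and in DND-41 libraries numbered 2 over 1 (right), with the number tested beside each bar. KRAB genes on chromosome 19 stand at 24.7% higher and 25.8% lower on the left and at 57.0% and 2.15% on the right.

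Of the 6 largest rises in the authors' deposited table, 4 (ZNF341, ZNF219, ZNF514 and ZNF333) were also among the 10 largest in MOLT-4. ZNF341 measured 9.43 CPM in the library labelled DMSO 1, 8.58 in ACBI-1 1, 24.1 in DMSO 2 and 23.9 in ACBI-1 2, so that both libraries numbered 2 were high whatever their label (log2 fold change 1.41, SE 0.0991, edgeR adjusted p = 1.62e-06). ZNF219 was at 36.4 and 37.7 CPM in the libraries numbered 1 and at 93.7 and 93.9 in those numbered 2 (log2 fold change 1.34, SE 0.0704, edgeR adjusted p = 2.52e-07). ZNF514 was at 14.0 and 14.3 CPM against 31.8 and 36.3 CPM (1.27), and ZNF333 at 22.1 and 20.1 against 42.9 and 43.8 CPM (1.04). The other two in the authors' deposited table were ZNF135 and ZNF737, KRAB genes of chromosome 19, at log2 fold changes of 0.99 and 0.89. ZNF135 was at 16.1 and 20.02 CPM in the libraries numbered 1 and at 35.7 and 37.6 CPM in those numbered 2. In MOLT-4 it was not called, with 5.65 and 6.46 CPM with DMSO and 6.07 and 6.51 with ACBI-1. ZSCAN18, on its opposite strand, held 217% of its counts and was also higher in the number contrast (log2 fold change 0.48).

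ZNF598, the ubiquitin ligase that marks collided ribosomes, had the largest fall of the number contrast. It was at 151 and 145 CPM in the libraries numbered 1 and at 92.3 and 92.1 CPM in those numbered 2 (log2 fold change -0.68, SE 0.0650, edgeR adjusted p = 1.21e-05). ZNF276 was at 47.8 and 42.9 against 28.0 and 29.3 CPM (-0.66), with FANCA again in the other direction (0.44). ZNF275 (-0.57), ZNF259 (-0.56), ZNF587B (-0.54) and ZNF787 (-0.52) followed, and each of these also fell in MOLT-4 (-0.46, -0.53, -0.42 and -0.35). Windows shared with other genes made up 14.5% of ZNF587B.

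**Figure D3:**
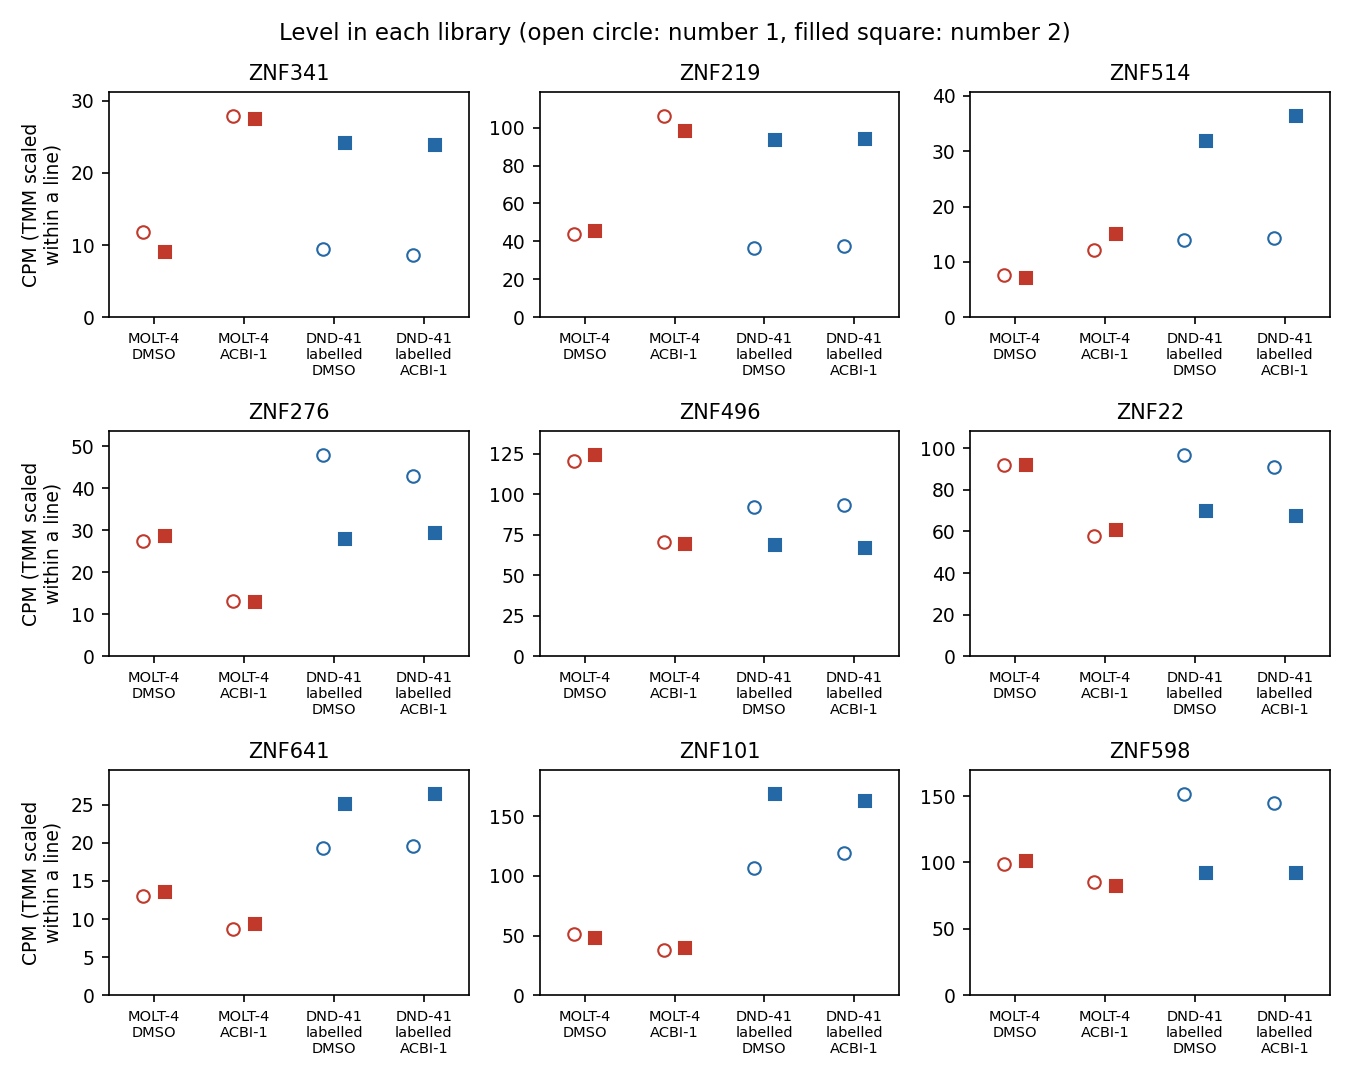
Level in CPM (TMM scaled within a line, axis from 0) of 9 zinc finger genes in each of the 8 libraries, with MOLT-4 in red and DND-41 in blue, open circles for libraries numbered 1 and filled squares for those numbered 2. In MOLT-4 the symbols separate by treatment, and in DND-41 they separate by number, as for ZNF341 with 8.58 and 9.43 CPM against 23.9 and 24.1 CPM.

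Across both lines, 71 genes were higher in both contrasts, 27 lower in both, 57 in neither, and 10 were lower in MOLT-4 and higher in the DND-41 libraries numbered 2 (edgeR in each line). The reverse pattern, higher in MOLT-4 and lower in DND-41, was found in 0 genes, and in 1 without the library labelled DND-41 DMSO replicate 2. The lines share no control library. The test called 58.4% of all genes tested in MOLT-4 and 51.1% in the DND-41 number contrast (edgeR). The share of all genes in each pattern is not given here, so these counts are not read as particular to the family. Over 261 genes the log2 fold changes of the lines had a Pearson r of 0.706 (Spearman 0.672), beside 0.650 (0.704) over 8339 genes of at least 15 CPM, as a description across genes, which are not independent replicates. ZNF341, ZNF219, ZNF514 and ZNF333 had the largest rises common to the MOLT-4 fit and the authors' deposited table, and ZNF276, ZNF259, ZNF496 and ZNF22 the largest common falls.

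**Figure D4:**
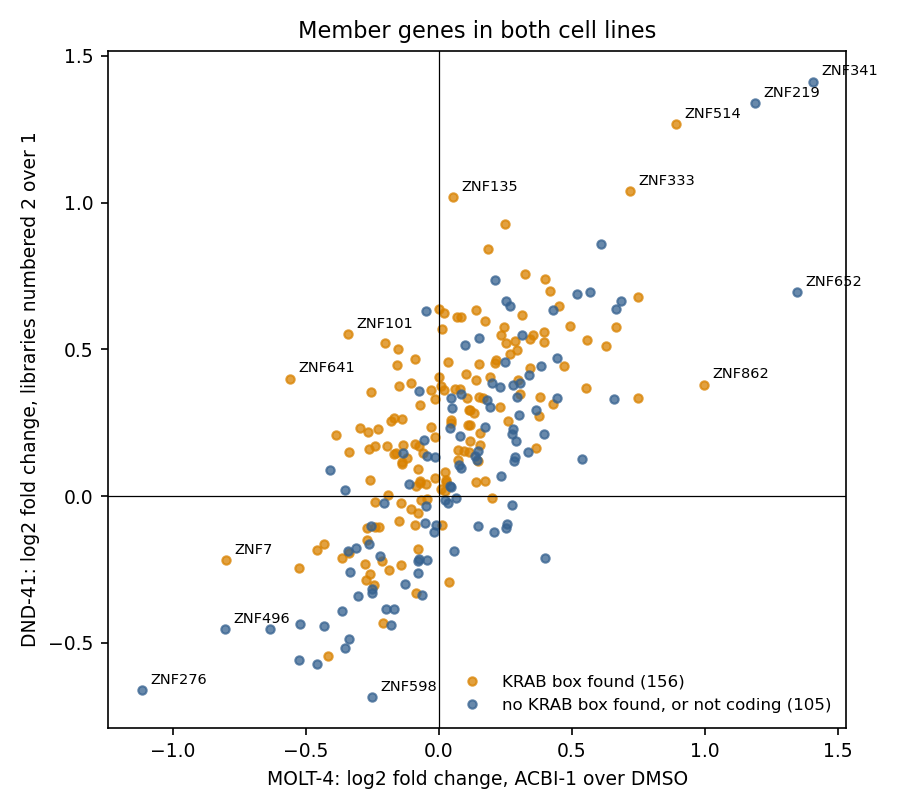
Log2 fold change in MOLT-4 with ACBI-1 (horizontal) against that in DND-41 libraries numbered 2 over 1 (vertical), with 1 point for each of 261 zinc finger genes, orange for those with a KRAB box. Most points run from ZNF276 at the lower left to ZNF341 at the upper right, and the upper left holds ZNF641 and ZNF101.

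The 10 exceptions, 5 of which lay outside the rule for named genes and were singled out after their values were seen, were ZNF100, ZNF101, ZNF107, ZNF253, ZNF254, ZNF430, ZNF431, ZNF641, ZNF675 and ZNF91. All 10 have a KRAB box, with 8 on chromosome 19, 1 on chromosome 7 and 1 on chromosome 12. ZNF641 measured 13.01 and 13.5 CPM with DMSO and 8.65 and 9.35 with ACBI-1 in MOLT-4, but 19.3 and 19.6 CPM in the DND-41 libraries numbered 1 and 25.1 and 26.4 in those numbered 2. ZNF101 went from 51.0 and 47.7 CPM to 38.4 and 39.6 in MOLT-4, while DND-41 had 107 and 119 CPM with number 1 and 169 and 163 with number 2. In both genes the libraries of each contrast did not overlap. The change in MOLT-4 minus that in the number contrast, from 1 fit of the 8 libraries added after the data were seen, was -0.94 for ZNF641 (SE 0.127) and -0.88 for ZNF101 (SE 0.0971). These genes were picked for their opposite calls in the same libraries, so the differences are a description, with no test.

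ZNF100 (MOLT-4 -0.25, DND-41 0.36) and ZNF431 (-0.20 and 0.52) followed, and in the authors' deposited table DND-41 had 0.32 and 0.49 for them. ZNF91, which silences the SVA class of retrotransposons, was at -0.15 and 0.37. These changes were small and their calls depended on the settings. With total counts in place of TMM all 10 kept both directions but 5 kept both calls, and with DESeq2 3 did, while leaving out single libraries left 5 to 8. Of the 9 with a promoter in the table, 7 held CCGGAAG (77.8%) and 8 held CCAAT (88.9%), beside 40.5% and 52.4% of the 84 promoters of KRAB genes on chromosome 19. GGGCGG stood in 55.6% beside 59.5%, and each other motif searched in 0 of the 9. These genes were picked for their calls. The printed windows of ZNF100 and ZNF431 share long runs of letters, so the promoters are not independent and the shares were not tested.

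Over the whole family the difference test called 10 genes with a higher change in MOLT-4 and 50 with a lower one, or 60 of 262 beside 20.6% of all genes tested (11.7% higher and 8.95% lower; edgeR). The 50 included 38 KRAB genes, 28 of them on chromosome 19. DESeq2 gave 6 and 33, and edgeR without a low-count filter 7 and 27. ZNF135 (-0.95) stood lowest, just beyond ZNF641, and ZNF431 (-0.71), ZNF775 (-0.66), ZNF737 (-0.66) and ZNF606 (-0.64) followed ZNF101. On the other side stood ZNF652 (0.67), ZNF862 (0.63), ZNF395 (0.62) and ZNF598 (0.45). ZNF775, ZNF606 and ZNF395 were singled out after their values were seen. Without the MOLT-4 library DMSO replicate 1 the counts were 6 and 38, and they were 6 and 32 without DMSO replicate 2 and likewise without ACBI-1 replicate 1.

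By role, a hand-picked list held 8 genes of the family that encode proteins acting on RNA or ribosomes. The list may not be complete, so its counts describe the listed genes only. In MOLT-4, 5 of them fell, 1 rose and 2 did not pass (median -0.17), beside 24.9% of the family, 30.2% of all genes tested and 40.6% of genes of at least 15 CPM that fell. With total counts in place of TMM, 3 fell and 2 rose, beside 20.7% and 39.7% of all genes tested. ZNF622, a factor in the making of the large ribosomal subunit, measured 18.3 ± 1.27 CPM (SD, n = 2) with DMSO and 13.6 ± 0.0638 with ACBI-1 (-0.43 on the log2 scale), and ZNF706 from 76.8 ± 0.552 to 57.8 ± 1.61 CPM (-0.41). ZNF598 (-0.25), ZNF326 (-0.22), part of a complex that links splicing to RNA polymerase II, and ZNF207 (-0.11), which helps to build the mitotic spindle, also fell. ZNF638, an RNA-binding protein, rose (0.23). ZNF346, which binds double-stranded RNA, measured 40.2 ± 0.312 and 40.8 ± 0.373 CPM (0.02, edgeR adjusted p = 0.769), and ZNF830 was at 0.04. In the DND-41 number contrast 3 of the 8 (37.5%) were lower (ZNF598, ZNF622 and ZNF326) and ZNF638 was higher. Of all genes tested there 25.7% were lower and 25.4% higher, and of genes of at least 15 CPM 34.1% and 24.8%.

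Another hand-picked list held 14 genes of the family that encode chromatin cofactors and other well-studied regulators. MOLT-4 had 6 that rose and 2 that fell (median 0.04), with log2 fold changes above 0 in 7 and below 0 in 7. Of all genes tested 28.2% rose and 30.2% fell, and of genes of at least 15 CPM 28.2% and 40.6%. By number 6 were higher and 1 lower in DND-41 (0.11). There 25.4% of all genes tested were higher and 25.7% lower, and 24.8% and 34.1% of genes of at least 15 CPM. ZNF217, a part of co-repressor complexes with CtBP and an oncogene in breast cancer, rose in MOLT-4 from 131 ± 5.67 CPM (SD, n = 2) to 179 ± 1.03 (0.44 on the log2 scale, edgeR adjusted p = 5.88e-13) and went from 102 ± 1.16 to 141 ± 4.50 CPM by number in DND-41 (0.47). ZNF148, which binds GC-rich promoters, rose by 0.24 and ZNF384, a fusion partner in B-cell leukaemia, by 0.18 on the log2 scale. ZNF281 (0.14) and ZNF462 (0.21) rose as well, beside ZNF219. ZNF146, a protein made almost only of fingers, fell in MOLT-4 (-0.25) and was lower in DND-41 (-0.33), and ZNF91 was the other that fell in MOLT-4. ZNF592, a partner of ZMYND8, measured 126 ± 0.0974 CPM with DMSO and 124 ± 2.82 with ACBI-1 (-0.02, edgeR adjusted p = 0.744). ZNF143, which binds the ACTACAA motif, was at -0.05, ZNF644, a partner of the methyltransferases G9a and GLP, at 0.08, and ZNF445, which protects imprinted methylation, at -0.01, none of them past the test. ZNF687, of the same complex as ZNF592, was at -0.07 in MOLT-4 and higher by number in DND-41 (0.36), with PI4KB on the opposite strand at 168% of its counts. ZNF93, which silences L1 retrotransposons, was at -0.14 in MOLT-4 (edgeR adjusted p = 0.0535) and higher by number in DND-41 (0.26).

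The 6 genes with the highest CPM were ZNF207, ZNF512B, ZNF664, ZNF217, ZNF146 and ZNF592, with means of 318, 258, 235, 139, 139 and 126 CPM. These values are not per length and do not rank transcripts. ZNF512B measured 254 in both DMSO libraries and 344 and 323 CPM with ACBI-1, without overlap (log2 fold change 0.40, SE 0.0368, edgeR adjusted p = 1.37e-12). ZNF664 was not called in MOLT-4 (0.08, edgeR adjusted p = 0.0684), with CCDC92 on its opposite strand at 17.4% of its counts. ZNF207 measured 329 and 337 CPM with DMSO and 306 and 311 with ACBI-1, a fall that was small but without overlap.

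The transcripts of the KRAB co-repressor machinery were read from a list of 35 genes. Upward calls in MOLT-4 numbered 7 and downward calls 14 (median -0.03), and the latter were 40.0% of the list, beside 40.6% of genes of at least 15 CPM that fell. By number in DND-41 8 were higher and 8 lower (-0.02), beside 24.8% and 34.1% of genes of at least 15 CPM. TRIM28, which KRAB boxes bind, measured 1385 ± 6.58 CPM (SD, n = 2) with DMSO and 1133 ± 28.4 with ACBI-1, a fall (-0.29 on the log2 scale, edgeR adjusted p = 1.37e-09) and was lower by number in DND-41 (-0.37). SETDB1 measured 45.5 ± 0.929 and 48.6 ± 1.85 CPM (0.09, edgeR adjusted p = 0.152). UHRF1, which brings DNA methyltransferase to replicated DNA, fell (-0.87), as did CHD4, an ATPase of the NuRD complex (-0.55), while its relative CHD3 rose (1.005) and CBX5, which encodes HP1 alpha, rose (0.37). With total counts in place of TMM, 16 of the 35 rose and 9 fell, beside 39.7% and 20.7% of all genes tested. Of the degrader's own targets, SMARCA4 rose (0.26) and SMARCA2 did not pass (-0.06, edgeR adjusted p = 0.439) in MOLT-4, as transcripts. PBRM1 (0.11) and VHL (0.16) rose slightly.

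Levels differed between the lines for a minority of genes, as a description over 4 libraries per line in plain CPM. At least 2-fold higher in DND-41 without overlap were 19 of the 262 (7.25%), beside 7.4% of all genes of at least 15 CPM, and 5 (1.91%) were higher in MOLT-4, beside 4.33%. The rule used these same levels, and 34 genes averaged 15 CPM only in DND-41 and 9 only in MOLT-4. Such genes passed through the line where they are high, among them ZNF141, ZNF677, ZNF358, ZNF783 and ZNF518B. These counts are therefore no test of a difference between the lines. ZNF141 ranged between 33.6 and 45.3 CPM in DND-41 but between 6.15 and 7.57 in MOLT-4, ZNF677 from 29.8 to 41.9 and 8.52 to 10.2, ZNF528 from 45.8 to 74.1 and 12.9 to 18.2, and ZNF101 from 103 to 174 and 39.8 to 48.7. The reverse held for ZNF783, at 37.2 to 47.2 CPM in MOLT-4 against 6.10 to 7.74 in DND-41, and for ZNF518B at 57.8 to 82.8 against 11.9 to 17.4. ZNF395, ZNF75A and ZNF154 were the other 3 genes higher in MOLT-4. ZNF358 had 0 counts in all 4 MOLT-4 libraries and 38.4 to 48.6 CPM in DND-41, at least 1262-fold higher against a floor of 3 counts over the 4 MOLT-4 libraries. Over all genes, 14 with at least 30 CPM in DND-41 had 0 counts in MOLT-4 and 20 the reverse. The lines came in separate tables, so a line and its table cannot be told apart. In the count headers all MOLT-4 libraries are marked redo and no DND-41 library is, and the headers do not explain the mark.

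**Figure D5:**
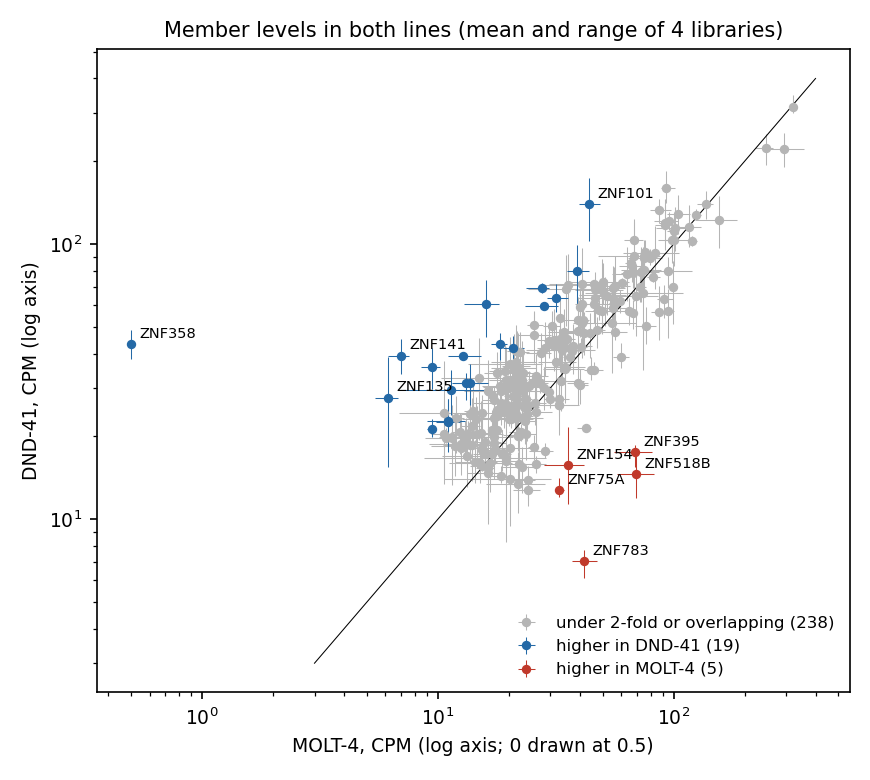
Mean level of each of 262 zinc finger genes in the 4 MOLT-4 libraries (horizontal) and the 4 DND-41 libraries (vertical), in CPM on log axes, with bars for the range and a line of equal levels. Blue points are the 19 genes at least 2-fold higher in DND-41 without overlap and red points the 5 in MOLT-4. ZNF358, at 0 in MOLT-4, is drawn at 0.5 on the horizontal axis.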

How the data were processed

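RNA-seq of 8 libraries was used. The authors deposited raw counts per gene from strand-specific, paired-end 100-base reads, per the labels' protocols, with STAR 2.5.2a, hg19, featureCounts and DESeq2 1.12.4 named in the submitters' processing notes. The authors also deposited DESeq2 tables with log2 fold changes and adjusted p-values, used for the DND-41 table, for shares called in MOLT-4 and for symbols. The strand setting is not given in the sources used here.

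Counts were tested with edgeR 4.0.16 (TMM scaling within a line, filterByExpr, quasi-likelihood test, Benjamini-Hochberg adjustment over all genes tested, threshold 0.05). DESeq2 1.42.0, total-count scaling, other filters, a replicate block and leaving out each library were alternatives. The script was tested on simulated data. The DND-41 number contrast and the difference between the contrasts were added after the data were seen. CPM printed in comparisons is TMM scaled, and membership and line levels use plain CPM. Members and lists were chosen with earlier results of these data known.

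Genes named were the 10 largest called changes per direction in MOLT-4 without overlap of libraries, 6 per direction in the deposited DND-41 table, the 6 with the most counts, 4 per direction shared by both lines, up to 4 in opposite directions, those at the threshold, and the role lists. Protein features came from GENCODE release 29 and promoters from RefSeq (GRCh38.p14), and neither build is that of the counts, so no position of a count is given.

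Replicate numbers pair no samples by the labels. Deviations of same-numbered libraries correlated at 0.849 in DND-41 and 0.00928 in MOLT-4.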

Additional observations from a re-analysis of the deposited data

How the results depend on the processing

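In MOLT-4, 91 genes rose and 65 fell. DESeq2 gave 51 and 40, no low-count filter gave 49 higher, total counts gave 37 lower and a median of 0.16, and 1 fit of all 8 libraries gave 1 and 1. Members of at least 30 CPM gave 46 and 38. Leaving out single libraries gave 68 to 74 higher, 49 to 56 lower and medians of 0.02 to 0.07. For DND-41 by number (123 and 34), total counts gave 19 lower and a median of 0.29, no filter 81 and 21, and members of at least 30 CPM 63 and 20. Leaving out single libraries gave 87 to 113 higher, 19 to 35 lower and medians of 0.16 to 0.22. In the authors' deposited table, an adjusted p under 0.01 left 16 lower, and members of at least 30 CPM left 49 higher. The difference test (10 and 50) gave 6 and 33 with DESeq2, 27 lower with no filter, and 6 to 15 higher and 32 to 54 lower without single libraries. DND-41 as labelled gave 0 and 0 without any single library, with medians of -0.03 to 0.15, and the labelled difference between lines gave 0. The cause of these shifts was not tested.

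With the replicate number as a block, MOLT-4 gave 92 higher and 64 lower, DND-41 as labelled 25 and 2, and the labelled difference between the lines 53 and 63. With 2 libraries per group the numbers were not taken as pairs. The share of all genes called in these blocked fits is not given here. The counts are therefore not read as a lean of the family. Of the named genes, 0 reversed in 253 refits of MOLT-4 and 0 in 252 of the DND-41 number contrast. In MOLT-4, 26 of the refits lost a call. Of these, 21 came from the 1 fit of all 8 libraries, in which only 2 of the named genes kept their call. In DND-41 12 refits lost a call, and those 12 were all of ZNF286A, ZNF431 or ZNF678.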

Other observations

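Related families were read with the same test. Of 180 numbered ZNF genes under 15 CPM tested in MOLT-4, 40 were higher and 21 lower (median log2 fold change 0.07), and of 196 in the DND-41 number contrast 76 were higher and 16 lower (0.28). Among 27 ZBTB genes, whose proteins join a BTB box to zinc fingers, 13 rose and 5 fell in MOLT-4 (0.14), and 14 were higher and 6 lower by number in DND-41 (0.20). Of 11 numbered ZFP genes 8 rose and 0 fell in MOLT-4 (0.19), and 6 were higher and 0 lower in DND-41 (0.22). The 10 ZSCAN and ZKSCAN genes split 5 to 1 in MOLT-4 and 5 to 0 in DND-41. The share of all genes called was 58.4% in MOLT-4 and 51.1% in DND-41 by number (edgeR).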
